A study of Mus musculus with 3 samples.

Results

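The complement components and receptors examined here are 9 genes of the 22954 in the tables, all of which were listed: the C1q chains C1qa, C1qb and C1qc, the components C3, C4b, Cfb and Cfp, and the anaphylatoxin receptors C3ar1 and C5ar1. They were taken as a list of names and followed through every cell of 3 lung libraries, by cell class and library. The libraries came from wild-type (WT) female C57BL6/J mice, 1 library for each condition, whose lungs were collected 5 months after a dose of 13 Gy to the thorax. The CONV mouse was irradiated at a conventional dose rate and the FLASH mouse at an ultra-high dose rate. The CONV AsiDNA mouse was irradiated at the conventional dose rate and had received AsiDNA, a short double-stranded DNA coupled to cholesterol that mimics a DNA break, at 100 mg/kg on each of 2 days and at 200 mg/kg on the day of irradiation. All 3 mice were irradiated, and non-irradiated libraries were not analysed here, so the values do not show what irradiation changed. With 1 library per condition, no test between conditions was possible, and each comparison is one between 3 libraries.

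Complement is a cascade of serum and tissue proteins that tags particles and cells for uptake. C1q is assembled from 3 kinds of chain, binds antibody or altered surfaces and starts the classical pathway, which splits C4 and C2 and then C3. In the alternative pathway, factor B (Cfb) binds a fragment of C3 and becomes a protease that splits more C3, and properdin (Cfp) stabilises this enzyme. The small fragments C3a and C5a, the anaphylatoxins, act on the receptors C3ar1 and C5ar1 of myeloid cells. In the lung, macrophages are known to make C1q, and epithelial, mesothelial and stromal cells are known to make C3 and C4.

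The lungs had been digested and the cells encapsulated with the 10x Genomics 3′ chemistry. The CONV table held 6372 cells, that of CONV AsiDNA 6983 and that of FLASH 6267, with median totals per cell of 3450, 3678 and 3621. The deposited values converted back to whole numbers, which are called adjusted counts because their totals per cell were narrow and many genes were listed at 0 in whole classes. A level is the sum of adjusted counts of a gene per 1000000 of its class and library (adjusted CPM), and a share is the percentage of cells with a value above 0. The 95% interval in parentheses (exact, Clopper-Pearson) covers the sampling of cells only. Cells were gated into classes by markers that hold no complement gene, and 18735 of 19615 cells received a class. The alveolar macrophage-like (AM) cells numbered 989 in CONV against 664 in CONV AsiDNA and 483 in FLASH, and the interstitial macrophage-like (IM) cells 316, 339 and 274. The type 2 alveolar epithelial-like (AT2) cells numbered 290, 331 and 385, the fibroblast-like cells 64, 120 and 172, and the mesothelial-like cells 22, 46 and 38. Most CONV AM cells (849) lay in a cluster other than the one that held most AM cells of CONV AsiDNA (540) and FLASH (405). By subset markers, 82.2% of the CONV AM cells were foamy (led by Spp1, Gpnmb, Mfge8, Cd5l, Lgals3 and Trem2), against 28.3% in CONV AsiDNA and 18.4% in FLASH. Pairs of libraries shared 9 to 17 cell barcodes. A change is given as the log2 ratio of (adjusted CPM + 10), and a gene is past the fold at an absolute log2 ratio of at least 1.

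The C1q chains were a signal of the interstitial macrophages. The 3 genes lie side by side on the minus strand of chromosome 4 within 18675 bases of GRCm38: C1qb at chr4:136880129-136886187, C1qc at chr4:136889804-136893065 and C1qa at chr4:136895917-136898803. C1qa was above 0 in 100% (98.8 to 100) of the IM cells in CONV against 99.7% (98.4 to 100) in CONV AsiDNA and, for FLASH, 99.6% (98.0 to 100). C1qb was above 0 in 100% in CONV against 99.4% in CONV AsiDNA and 99.6% in FLASH, and C1qc in 99.7% in CONV against 100% in CONV AsiDNA and 99.3% in FLASH. Almost every IM cell of each library therefore held each chain.

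In IM cells the level of C1qa was 9713 adjusted CPM in CONV against 10102 in CONV AsiDNA and 10159 in FLASH. The level of C1qb was 7514 adjusted CPM in CONV against 8215 in CONV AsiDNA and 7884 in FLASH, and that of C1qc was 6476 adjusted CPM in CONV against 6837 in CONV AsiDNA and 6463 in FLASH. The libraries were close to one another for each chain, with log2 ratios between -0.13 and 0.08 over the 3 chains and 3 pairs of libraries. All 3 chains were above 0 together in 99.7% of the IM cells in CONV against 99.4% in CONV AsiDNA and 99.3% in FLASH. The median summed C1q of an IM cell was 92 adjusted counts in CONV against 100 in CONV AsiDNA and 94 in FLASH, and single cells ranged from 0 to 335.

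Outside the macrophages the chains were nearly absent from the tables. Over the B, T, NK, endothelial, neutrophil, monocyte and fibroblast-like cells, C1qa was above 0 in 0 of 3526 cells in CONV against 1 of 4031 in CONV AsiDNA and 0 of 3882 in FLASH, and the same counts held for C1qb and C1qc. Median totals of these cells were 3073, 3282 and 3428, not far below those of the IM cells (3903, 3935 and 3879). How the deposited values were adjusted is not known here, so a value of 0 does not set a limit on expression. Of the conventional dendritic cells, cDC1-like cells had C1qa in 8.93% (2.96 to 19.6) in CONV against 2.65% (0.726 to 6.64) in CONV AsiDNA and, for FLASH, 0% (0 to 3.18), on 5 and 4 cells. Among cells without a class, C1qa was above 0 in 36.4% (31.3 to 41.9) in CONV against 27.6% (22.7 to 33.0) in CONV AsiDNA and, for FLASH, 20.1% (15.2 to 25.7), and 71 of these 121 cells in CONV against 71 of 84 in CONV AsiDNA and 42 of 49 in FLASH lay in the clusters named IM-like. Another 44, 11 and 5 lay in clusters named AM-like. The gate therefore leaves out some C1q cells, and 201 cells with IM markers highest lay within 5 percentage points of its threshold.

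Promoters of 6 of the 9 genes were in the RefSeq table for GRCm38.p6, namely C1qb, C1qc, C3, C3ar1, C5ar1 and Cfp. The 250 bases before the start are shown for the C1qb and C1qc chains and for C3ar1, whose levels followed one another over classes, and for C3, whose levels went with other classes. All 4 genes are on the minus strand and are written 5′ to 3′ toward the RefSeq start. For C1qc and C3ar1 this start lies inside the gene as annotated at the positions given for each. They lie at chr4:136886201-136886450 for C1qb, chr4:136892915-136893164 for C1qc, chr6:122856158-122856407 for C3ar1 and chr17:57228137-57228386 for C3. Capitals mark a match, here read on the strand shown or its complement, to one of 6 motifs searched on both strands, which were PU.1 (GAGGAAG), GAS (TTCNNNGAA), ISRE (GAAA, 2 bases of any kind, GAAA), NF-kB (GGG, 2 bases of any kind, TTTCC), C/EBP (TTGNNNAAT) and a MAF site core (TGCTGAC).
C1qb: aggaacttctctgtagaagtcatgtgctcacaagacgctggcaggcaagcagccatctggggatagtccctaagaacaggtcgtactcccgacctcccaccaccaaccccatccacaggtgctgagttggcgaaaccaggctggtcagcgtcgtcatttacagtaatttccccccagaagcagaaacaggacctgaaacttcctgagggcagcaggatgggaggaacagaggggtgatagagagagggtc
C1qc: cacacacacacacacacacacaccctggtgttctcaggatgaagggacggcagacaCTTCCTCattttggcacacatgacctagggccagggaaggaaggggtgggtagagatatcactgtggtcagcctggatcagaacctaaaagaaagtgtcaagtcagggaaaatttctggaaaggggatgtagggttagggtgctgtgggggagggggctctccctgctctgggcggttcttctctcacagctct
C3ar1: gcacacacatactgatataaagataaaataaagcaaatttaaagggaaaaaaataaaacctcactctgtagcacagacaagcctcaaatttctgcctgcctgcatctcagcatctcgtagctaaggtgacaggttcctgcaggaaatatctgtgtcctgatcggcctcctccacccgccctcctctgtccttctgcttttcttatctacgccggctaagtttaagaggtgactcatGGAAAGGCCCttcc
C3: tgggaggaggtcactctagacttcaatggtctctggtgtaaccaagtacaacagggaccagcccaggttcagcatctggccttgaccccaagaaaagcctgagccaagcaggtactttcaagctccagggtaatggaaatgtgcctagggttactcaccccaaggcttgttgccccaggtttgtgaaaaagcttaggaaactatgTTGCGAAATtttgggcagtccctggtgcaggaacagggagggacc

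The promoter of C1qc held a match to PU.1, a factor of myeloid cells, from 194 to 188 bases before the start. The promoter of C3ar1 held a match to NF-kB from 14 to 5 bases before it, and that of C3 a match to C/EBP, a family known for acute phase genes, from 45 to 37 bases before it. No match lay in the windows of C1qb, C5ar1 and Cfp, and the matches shown did not overlap. Of 32851 promoter windows of the same length, 10.6% held the PU.1 letters, 10.4% those of C/EBP, 7.02% those of GAS, 3.81% the MAF core, 2.98% those of ISRE and 1.41% those of NF-kB. A match describes the letters of the window and not a binding site.

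The IM cells were not uniform. Those with at least 3 of the markers Cd163, Folr2, Stab1, Cbr2, Lyve1 and Pf4 above 0, a cut set after values had been seen, were called Folr2 Cd163 IM cells and made up 23.7% of the IM cells in CONV against 38.1% in CONV AsiDNA and 40.5% in FLASH. Cbr2 was listed at 0 in all gated IM cells. In Folr2 Cd163 cells the level of C1qa was 11093 adjusted CPM in CONV against 11526 in CONV AsiDNA and 11275 in FLASH, and in the other IM cells it was 9255 adjusted CPM in CONV against 9201 in CONV AsiDNA and 9368 in FLASH. C1qc stood at 7736 adjusted CPM in CONV against 8105 in CONV AsiDNA and 7187 in FLASH in the first subset and at 6058 adjusted CPM in CONV against 6034 in CONV AsiDNA and 5949 in FLASH in the second. Each library had more of both chains in the Folr2 Cd163 cells.

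In AM cells C1q was found in a small number of cells. C1qb was above 0 in 37 AM cells in CONV against 4 in CONV AsiDNA and 3 in FLASH, or 3.74% (2.65 to 5.12) in CONV against 0.602% (0.164 to 1.54) in CONV AsiDNA and, for FLASH, 0.621% (0.128 to 1.80). Its level was 103 adjusted CPM in CONV against 12.2 in CONV AsiDNA and 34.4 in FLASH, with log2 ratios of 2.35 (CONV over CONV AsiDNA) and 1.35 (CONV over FLASH). C1qa and C1qc gave log2 ratios of 2.26 and 2.21 against CONV AsiDNA, and of 1.19 and 1.12 against FLASH. CONV was the highest library for each chain. All 37 of the CONV cells with C1qb were foamy by subset markers, and none of the resident AM cells had C1qb in any library. Within foamy AM cells alone, C1qb was above 0 in 4.55% in CONV against 1.60% in CONV AsiDNA and 3.37% in FLASH, and the level of FLASH (180.0 adjusted CPM) was above that of CONV (125), so the order of the libraries turned there. The levels of CONV AsiDNA and FLASH rest on so few cells that a single cell weighs on them. The summed IM markers were highest in CONV over all AM cells, as C1q was, but CONV AsiDNA and FLASH did not have the order of C1qb. Within foamy AM cells their sum was 239 adjusted CPM in CONV against 90.6 in CONV AsiDNA and 94.4 in FLASH, with CONV highest. Of these markers, 3, 8 and 3 of the 14 were above 0 in the AM cells of CONV, CONV AsiDNA and FLASH, with a summed level of 218 adjusted CPM in CONV against 58.4 in CONV AsiDNA and 54.9 in FLASH, and Cd163, Folr2, Pf4, Cd72 and Gas6 were listed at 0 in all 3. Their part in the C1q of AM cells was not tested.

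**Figure D1:**
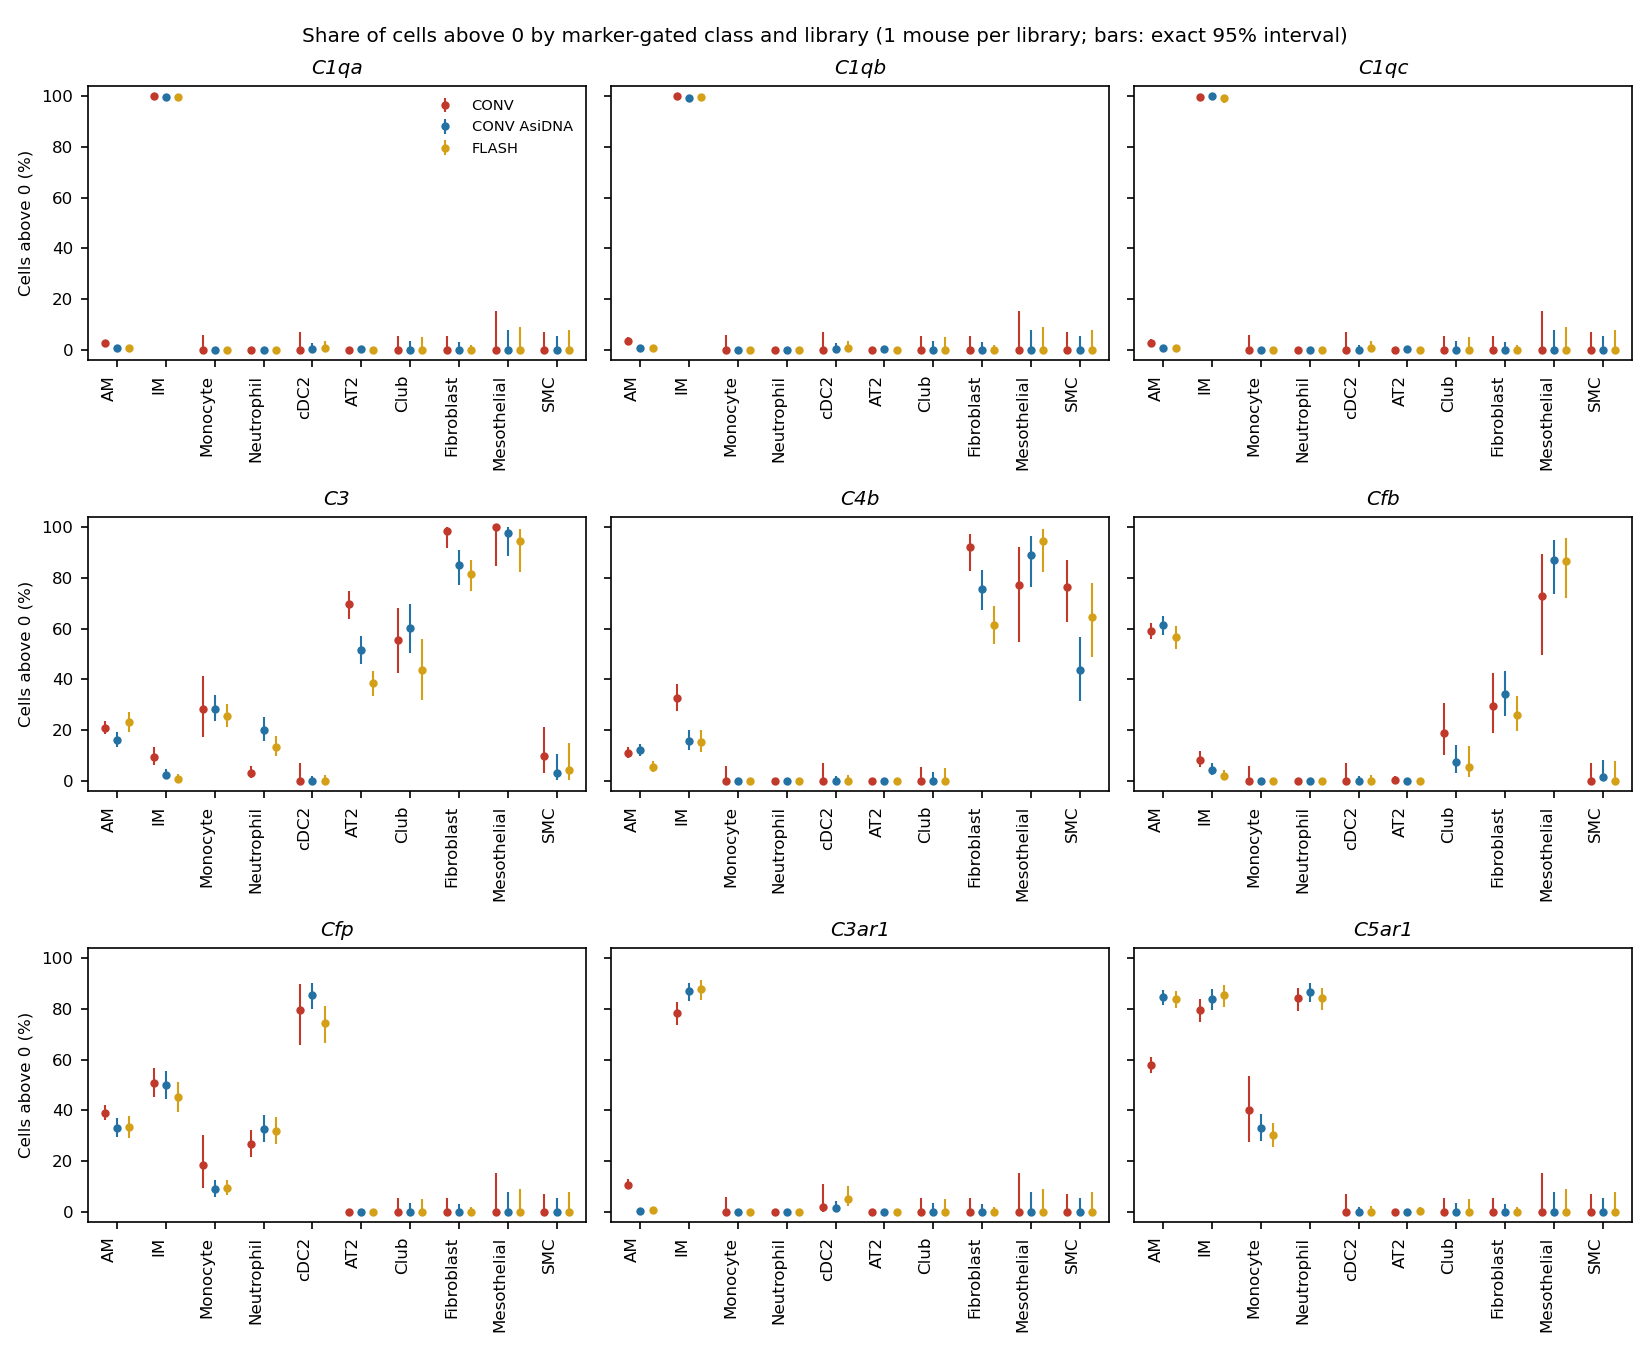
Share of cells above 0 (%) for each of the 9 genes in 10 marker-gated classes, with 1 point per library (CONV red, CONV AsiDNA blue, FLASH yellow) and bars for the exact 95% interval over cells. The C1q chains and C3ar1 sit high in IM cells, C3 and C4b in fibroblast and mesothelial cells, and the CONV point of C5ar1 in AM cells (57.8%) lies below those of the other libraries.

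C3, the component on which all pathways meet, was widest in the cells of the lung's surfaces and stroma. It lies at chr17:57203970-57228136 on the minus strand. In mesothelial-like cells, which cover the lung, it was above 0 in 100% (84.6 to 100) in CONV against 97.8% (88.5 to 99.9) in CONV AsiDNA and, for FLASH, 94.7% (82.3 to 99.4). Its level there was 9259 adjusted CPM in CONV against 9424 in CONV AsiDNA and 10847 in FLASH, and the intervals of the 3 libraries overlapped. The mesothelial cells were at most 0.659% of a library's cells and held of its C3 adjusted counts 34.8% in CONV against 45.1% in CONV AsiDNA and 48.8% in FLASH.

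Fibroblast-like cells had C3 in 98.4% (91.6 to 100) in CONV against 85.0% (77.3 to 90.9) in CONV AsiDNA and, for FLASH, 81.4% (74.8 to 86.9), at 2242 adjusted CPM in CONV against 2132 in CONV AsiDNA and 1628 in FLASH. The alveolar fibroblasts (by Col13a1, Npnt, Itga8, Ces1d, Limch1 and Tcf21) had it in 97.9% in CONV against 87.7% in CONV AsiDNA and 82.5% in FLASH, with CONV highest. The adventitial fibroblasts (by Pi16, Col14a1, Mfap5, Serpinf1, Clec3b, Dpp4 and Ly6a) were highest in CONV AsiDNA, at 2372 adjusted CPM in CONV against 3000.1 in CONV AsiDNA and 2034 in FLASH, but numbered only 17, 39 and 35 cells. The log2 ratios over all fibroblast-like cells were 0.07 (CONV over CONV AsiDNA) and 0.46 (CONV over FLASH), short of the fold.

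AT2 cells, which secrete surfactant, had C3 in 69.7% (64.0 to 74.9) in CONV against 51.7% (46.1 to 57.2) in CONV AsiDNA and, for FLASH, 38.4% (33.6 to 43.5). CONV was highest and FLASH lowest. The 3 intervals did not overlap, but they cover the sampling of cells and not of mice. The level was 332 adjusted CPM in CONV against 192 in CONV AsiDNA and 142 in FLASH, with log2 ratios of 0.76 (CONV over CONV AsiDNA) and 1.17 (CONV over FLASH). With each cell thinned to 1000 adjusted counts, the shares were 29.3% in CONV against 16.0% in CONV AsiDNA and 10.4% in FLASH, in the same order, and median totals of AT2 cells were 4840, 4833 and 4798. The mitochondrial share of AT2 cells moved the other way, at 1.47% in CONV against 3.06% in CONV AsiDNA and 5.18% in FLASH, and the summed AT2 markers stood at 254851 adjusted CPM in CONV against 269538 in CONV AsiDNA and 286379 in FLASH. Fibroblast and mesothelial markers were listed at 0 in the AT2 cells of all 3 libraries. Monocyte markers, 3, 4 and 4 of the 13 of which were above 0, had the order of C3 in these cells, with a sum of 253 adjusted CPM in CONV against 133 in CONV AsiDNA and 68.1 in FLASH, and Ace, Treml4, Adgre4, Spn, Plac8 and Gngt2 were listed at 0 in each library. Scaled by the median gene ratio, the log2 ratio for CONV over FLASH was 0.97, short of the fold. The parts of the mitochondrial share and of the monocyte markers in the C3 difference were not tested.

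Airway and myeloid cells held C3 as well. Club-like cells of the airways had it in 55.6% (42.5 to 68.1) in CONV against 60.4% (50.4 to 69.7) in CONV AsiDNA and, for FLASH, 43.7% (31.9 to 56.0), where the intervals overlapped, and monocyte-like cells in 28.3% (17.5 to 41.4) in CONV against 28.5% (23.6 to 33.9) in CONV AsiDNA and, for FLASH, 25.6% (21.4 to 30.2), where they also overlapped. AM cells had it in 20.9% (18.4 to 23.6) in CONV against 16.1% (13.4 to 19.1) in CONV AsiDNA and, for FLASH, 23.2% (19.5 to 27.2), with CONV AsiDNA lowest. In IM cells it was above 0 in 9.49% (6.50 to 13.3) in CONV against 2.36% (1.02 to 4.60) in CONV AsiDNA and, for FLASH, 0.730% (0.0885 to 2.61), on 30, 8 and 2 cells, and the level was 82.3 adjusted CPM in CONV against 28.4 in CONV AsiDNA and 6.47 in FLASH. The log2 ratios in IM cells were 1.26 (CONV over CONV AsiDNA) and 2.49 (CONV over FLASH). AT2 markers moved with it in these cells, with 3, 3 and 1 of the 11 above 0 and a sum of 68.7 adjusted CPM in CONV against 16.0 in CONV AsiDNA and 3.69 in FLASH, as did fibroblast markers, with 3, 2 and 0 of the 11 above 0 and a sum of 36.0 adjusted CPM in CONV against 23.3 in CONV AsiDNA and 0 in FLASH. Sftpc, Sftpb, Col1a1, Col1a2 and all 8 mesothelial markers were listed at 0 in IM cells of each library, and the part of the rest was not tested.

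Neutrophil-like cells ran the other way. They had C3 in 3.01% (1.31 to 5.84) in CONV against 20.2% (15.9 to 25.1) in CONV AsiDNA and, for FLASH, 13.5% (9.86 to 17.8), at 23.9 adjusted CPM in CONV against 135 in CONV AsiDNA and 73.3 in FLASH, with log2 ratios of -2.10 (CONV over CONV AsiDNA) and -1.30 (CONV over FLASH). CONV was the lowest library. Its interval, over cells and not mice, lay below those of the others. Median totals of neutrophils were 2782, 2911 and 2938. Monocyte markers had the same order in these cells, with 9, 10 and 8 of the 13 above 0, a sum of 1879 adjusted CPM in CONV against 2623 in CONV AsiDNA and 2313 in FLASH, and Ccr2, Vcan and Fabp4 listed at 0 in all 3 libraries. Their part was not tested.

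C4b, the component split in the classical and lectin pathways, lies at chr17:34728380-34743882 on the minus strand. Its near copy C4a lies at chr17:34809092-34823464, and 294 of the last 300 bases of the longest C4b transcript (98.0%) are identical in C4a, so 3′ reads may have been split or lost between them and the level of C4b is uncertain. Fibroblast-like cells had C4b in 92.2% (82.7 to 97.4) in CONV against 75.8% (67.2 to 83.2) in CONV AsiDNA and, for FLASH, 61.6% (53.9 to 68.9). The level was 1945 adjusted CPM in CONV against 1371 in CONV AsiDNA and 886 in FLASH, with log2 ratios of 0.50 (CONV over CONV AsiDNA) and 1.13 (CONV over FLASH). CONV was highest and FLASH lowest, and the order held with cells thinned to 1000 adjusted counts, at 73.4% in CONV against 55.8% in CONV AsiDNA and 36.0% in FLASH.

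The alveolar fibroblasts had the same order. They had C4b in 97.9% (88.7 to 99.9) in CONV against 72.8% (61.8 to 82.1) in CONV AsiDNA and, for FLASH, 54.0% (45.3 to 62.6). The log2 ratios of alveolar fibroblasts were 0.96 (CONV over CONV AsiDNA) and 1.54 (CONV over FLASH). Adventitial fibroblasts had C4b in 76.5% (50.1 to 93.2) in CONV against 82.1% (66.5 to 92.5) in CONV AsiDNA and, for FLASH, 91.4% (76.9 to 98.2), with overlapping intervals and the opposite order of shares. Their levels did not have that order, at 1616 adjusted CPM in CONV against 2039 in CONV AsiDNA and 1608 in FLASH. The mitochondrial share of fibroblast-like cells moved against C4b, at 0.318% in CONV against 0.699% in CONV AsiDNA and 1.05% in FLASH, and median totals were 4312, 4143 and 4018. Mesothelial markers in fibroblast-like cells, 6, 3 and 3 of the 8 of which were above 0, summed to 282 adjusted CPM in CONV against 143 in CONV AsiDNA and 222 in FLASH. Lrrn4 and Gpm6a among them were listed at 0 in all 3 libraries. IM markers, 3, 3 and 3 of the 14 of which were above 0, had the order of C4b, with a sum of 1680.5 adjusted CPM in CONV against 1106 in CONV AsiDNA and 904 in FLASH, while Ms4a7, Cd163, Folr2, Stab1 and Pf4 were listed at 0 in each library. Monocyte markers had that order too, with 6, 6 and 4 of the 13 above 0, a sum of 311 adjusted CPM in CONV against 241 in CONV AsiDNA and 140.3 in FLASH, and Ccr2 and Ly6c2 listed at 0 in each library. So had AT2 markers, with 2, 1 and 0 of the 11 above 0 and a sum of 42.4 adjusted CPM in CONV against 11.8 in CONV AsiDNA and 0 in FLASH. The parts of these in C4b were not tested.

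In mesothelial-like cells the order of C4b was reversed. It was above 0 in 77.3% (54.6 to 92.2) in CONV against 89.1% (76.4 to 96.4) in CONV AsiDNA and, for FLASH, 94.7% (82.3 to 99.4), at 2014 adjusted CPM in CONV against 4235 in CONV AsiDNA and 5176 in FLASH, and the log2 ratios were -1.07 (CONV over CONV AsiDNA) and -1.36 (CONV over FLASH). The CONV value rests on 22 cells, and the intervals of the shares overlapped. The mitochondrial share of mesothelial-like cells had the same order, at 0.135% in CONV against 1.40% in CONV AsiDNA and 2.48% in FLASH, with median totals of 4917, 4321 and 4392, and its part was not tested. Smooth muscle-like (SMC) cells had C4b in 76.5% (62.5 to 87.2) in CONV against 43.8% (31.4 to 56.7) in CONV AsiDNA and, for FLASH, 64.4% (48.8 to 78.1), with CONV AsiDNA lowest. C3 and C4b were above 0 together in 90.6% of the fibroblast-like cells in CONV against 70.0% in CONV AsiDNA and 55.2% in FLASH.

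Macrophages held C4b in a part of the cells. IM cells had it in 32.6% (27.5 to 38.1) in CONV against 15.9% (12.2 to 20.3) in CONV AsiDNA and, for FLASH, 15.3% (11.3 to 20.1), at 284 adjusted CPM in CONV against 158 in CONV AsiDNA and 121 in FLASH, with log2 ratios of 0.80 (CONV over CONV AsiDNA) and 1.16 (CONV over FLASH). Thinned to 1000 adjusted counts, the shares were 17.4% in CONV against 9.73% in CONV AsiDNA and 8.03% in FLASH. In the Folr2 Cd163 subset C4b was above 0 in 74.7% (63.3 to 84.0) in CONV against 41.9% (33.2 to 50.9) in CONV AsiDNA and, for FLASH, 33.3% (24.7 to 42.9), and CONV was highest there too, although CONV had the smallest share of Folr2 Cd163 cells. The fibroblast and AT2 markers given for the C3 of IM cells had the order of C4b as well, and in the Folr2 Cd163 cells the fibroblast markers, 2, 2 and 0 of the 11 of which were above 0, summed to 35.3 adjusted CPM in CONV against 5.64 in CONV AsiDNA and 0 in FLASH. Their part was not tested. In the other IM cells C4b was above 0 in 19.5% in CONV against 0% in CONV AsiDNA and 3.07% in FLASH. With classes taken from clusters in place of markers, the log2 ratio of C4b in IM cells for CONV over FLASH was 0.53, short of the fold. AM cells had C4b in 11.1% (9.23 to 13.2) in CONV against 12.0% (9.67 to 14.8) in CONV AsiDNA and, for FLASH, 5.38% (3.55 to 7.79), with FLASH lowest.

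**Figure D2:**
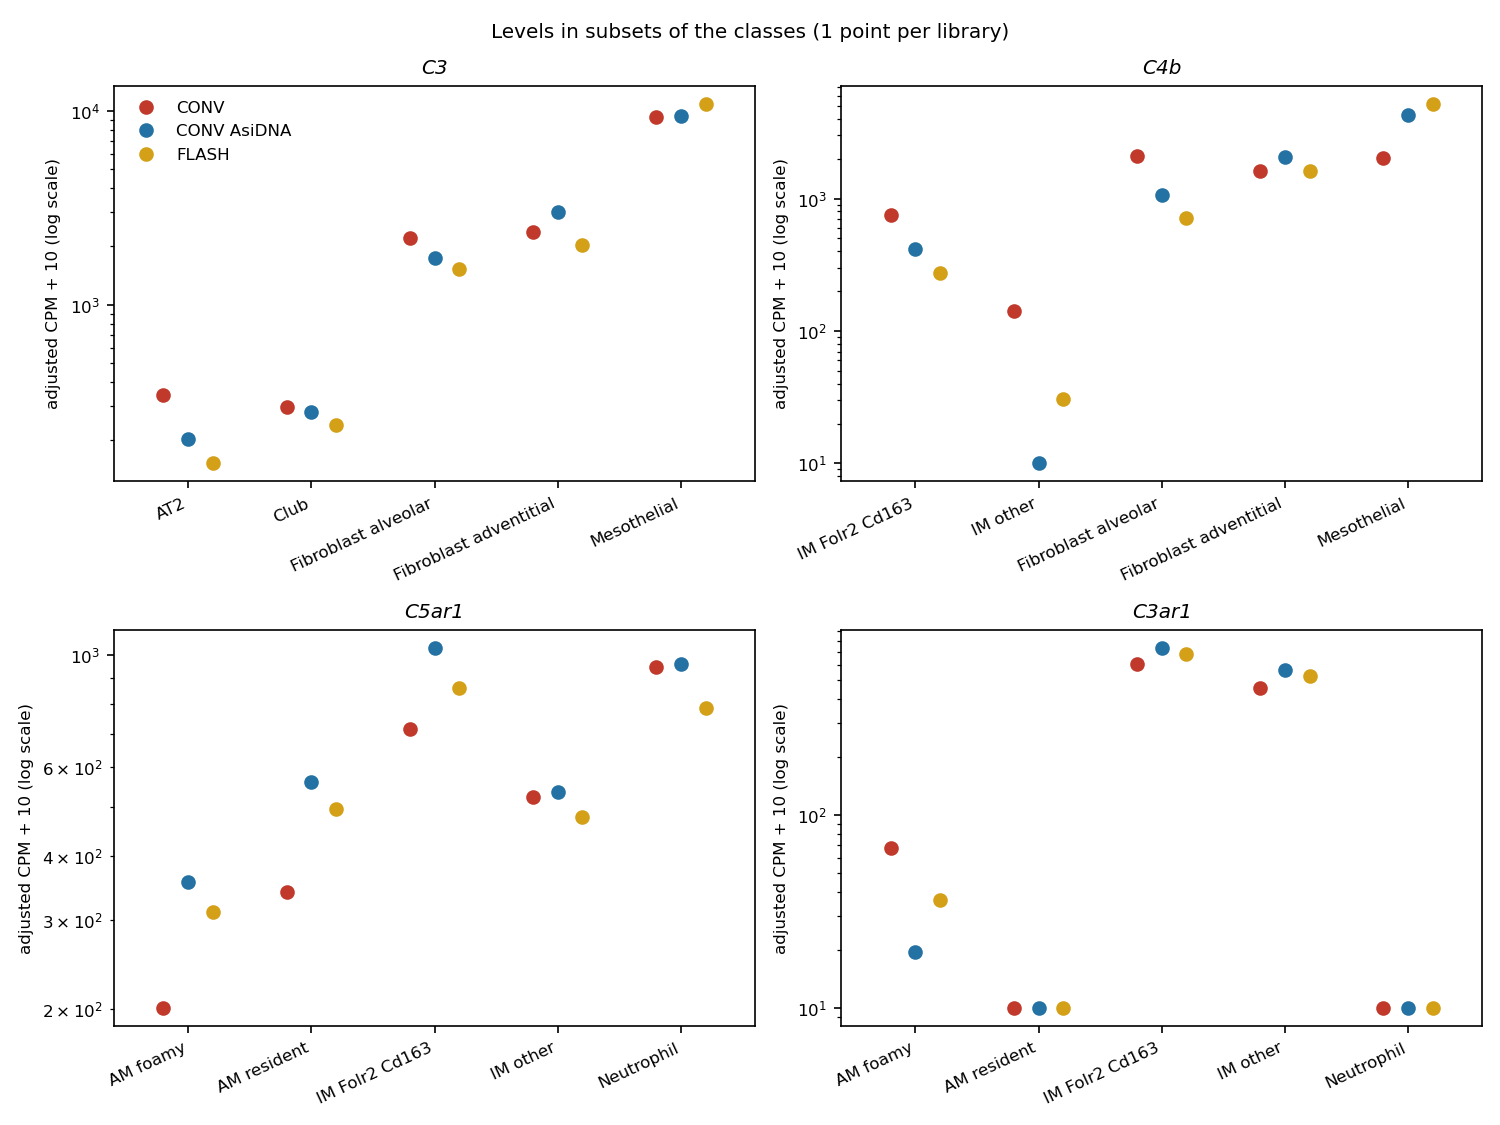
Levels of C3, C4b, C5ar1 and C3ar1 in subsets of the classes as adjusted CPM + 10 on a log axis, with 1 point per library, so that a point at 10 is a gene listed at 0. C4b is highest in CONV in alveolar fibroblasts and Folr2 Cd163 IM cells and lowest in CONV in mesothelial cells, and C5ar1 is lowest in CONV in both AM subsets.

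Cfb, the protease of the alternative pathway, was a signal of AM and mesothelial-like cells. It lies at chr17:34856374-34862518 on the minus strand, beside C2 and without overlap. AM cells had Cfb in 59.0% (55.9 to 62.1) in CONV against 61.3% (57.5 to 65.0) in CONV AsiDNA and, for FLASH, 56.7% (52.2 to 61.2), at 293 adjusted CPM in CONV against 284 in CONV AsiDNA and 261 in FLASH, and the libraries differed by log2 ratios of 0.05 to 0.16. These cells held of the Cfb adjusted counts 76.1% in CONV against 65.6% in CONV AsiDNA and 62.1% in FLASH, while they were 15.5%, 9.51% and 7.71% of the cells. Mesothelial-like cells had it in 72.7% (49.8 to 89.3) in CONV against 87.0% (73.7 to 95.1) in CONV AsiDNA and, for FLASH, 86.8% (71.9 to 95.6), at 1054 adjusted CPM in CONV against 1488 in CONV AsiDNA and 1357 in FLASH. The intervals overlapped in both classes.

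Fibroblast-like cells had Cfb in 29.7% (18.9 to 42.4) in CONV against 34.2% (25.8 to 43.4) in CONV AsiDNA and, for FLASH, 26.2% (19.8 to 33.4), at 127 adjusted CPM in CONV against 243 in CONV AsiDNA and 119 in FLASH, with CONV AsiDNA highest and overlapping intervals. In the CONV AsiDNA adventitial fibroblasts it was above 0 in 51.3%. IM cells had it in 8.23% (5.45 to 11.8) in CONV against 4.42% (2.50 to 7.19) in CONV AsiDNA and, for FLASH, 1.82% (0.595 to 4.21), with CONV highest, and the Folr2 Cd163 subset in 22.7% (13.8 to 33.8) in CONV against 9.30% (4.90 to 15.7) in CONV AsiDNA and, for FLASH, 2.70% (0.561 to 7.70). By level, Cfb in all IM cells was 58.3 adjusted CPM in CONV against 26.2 in CONV AsiDNA and 32.3 in FLASH, with CONV AsiDNA lowest. The fibroblast and AT2 markers of IM cells had the order of the shares, as given for C3 and C4b. In the Folr2 Cd163 cells the AT2 markers, 2, 2 and 1 of the 11 of which were above 0, summed to 38.5 adjusted CPM in CONV against 22.6 in CONV AsiDNA and 8.91 in FLASH. Col1a1, Col3a1, Sftpc and Sftpb were listed at 0 in these cells in each library, and the part of these markers in Cfb was not tested. Club-like cells had it in 19.0% in CONV against 7.55% in CONV AsiDNA and 5.63% in FLASH.

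Cfp, which encodes properdin, was a myeloid gene in these libraries. It lies on the X chromosome, at chrX:20925454-20931555 on the minus strand. The cDC2-like cells had it in 79.6% (65.7 to 89.8) in CONV against 85.6% (79.8 to 90.2) in CONV AsiDNA and, for FLASH, 74.3% (66.6 to 81.1). IM cells had it in 50.9% (45.3 to 56.6) in CONV against 50.1% (44.7 to 55.6) in CONV AsiDNA and, for FLASH, 45.3% (39.3 to 51.4), at 417 adjusted CPM in CONV against 439.6 in CONV AsiDNA and 360.3 in FLASH, and AM cells in 39.1% (36.1 to 42.3) in CONV against 33.3% (29.7 to 37.0) in CONV AsiDNA and, for FLASH, 33.5% (29.3 to 37.9). Neutrophil-like cells had it in 26.7% (21.5 to 32.4) in CONV against 32.7% (27.5 to 38.2) in CONV AsiDNA and, for FLASH, 31.9% (26.7 to 37.5). In each of these classes the libraries' intervals overlapped, and the log2 ratios in IM cells were -0.07 (CONV over CONV AsiDNA) and 0.21 (CONV over FLASH).

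Within the IM cells Cfp went with the Folr2 Cd163 markers. It was above 0 in 84.0% of the Folr2 Cd163 cells in CONV against 85.3% in CONV AsiDNA and 82.9% in FLASH and in 40.7% of the others in CONV against 28.6% in CONV AsiDNA and 19.6% in FLASH. In the other IM cells the level was 228 adjusted CPM in CONV against 140.5 in CONV AsiDNA and 103 in FLASH, with CONV highest, whereas in the Folr2 Cd163 cells the shares stayed within 3 percentage points. AM markers had the order of Cfp in these other IM cells, with 7, 7 and 6 of the 15 above 0 and a sum of 1289.8 adjusted CPM in CONV against 791 in CONV AsiDNA and 599.9 in FLASH, and so had AT2 markers, with 3, 3 and 0 of the 11 above 0 and a sum of 78.7 adjusted CPM in CONV against 11.9 in CONV AsiDNA and 0 in FLASH. Chil3, Krt79, Fabp1, Plet1, Cidec, Ear1 and Ctsk of the AM markers were listed at 0 in each library, and the part of both sets was not tested. C4b and Cfp were above 0 together in 62.7% of the Folr2 Cd163 cells in CONV against 38.8% in CONV AsiDNA and 31.5% in FLASH. Monocyte-like cells had Cfp in 18.3% in CONV against 8.97% in CONV AsiDNA and 9.30% in FLASH, with CONV resting on 60 cells.

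C3ar1, the receptor of C3a, lies at chr6:122847138-122856161 on the minus strand and followed the C1q chains. IM cells had it in 78.5% (73.5 to 82.9) in CONV against 87.0% (83.0 to 90.4) in CONV AsiDNA and, for FLASH, 88.0% (83.5 to 91.6), at 480.2 adjusted CPM in CONV against 616 in CONV AsiDNA and 580.1 in FLASH, and CONV was the lowest library by log2 ratios of -0.35 (CONV over CONV AsiDNA) and -0.27 (CONV over FLASH). With cells thinned to 1000 adjusted counts, the shares were 36.7% in CONV against 43.7% in CONV AsiDNA and 39.1% in FLASH, and the libraries moved closer. In neutrophil-like cells C3ar1 was listed at 0 in every library.

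In AM cells C3ar1 was nearly a CONV signal. It was above 0 in 10.8% (8.95 to 12.9) in CONV against 0.452% (0.0933 to 1.31) in CONV AsiDNA and, for FLASH, 0.621% (0.128 to 1.80), that is in 107, 3 and 3 cells. The level was 47.7 adjusted CPM in CONV against 3.67 in CONV AsiDNA and 5.03 in FLASH, with log2 ratios of 2.08 (CONV over CONV AsiDNA) and 1.94 (CONV over FLASH). Of the CONV cells with C3ar1, 106 were foamy and 0 were resident. Within the foamy AM cells it was above 0 in 13.0% (10.8 to 15.5) in CONV against 1.06% (0.129 to 3.79) in CONV AsiDNA and, for FLASH, 3.37% (0.701 to 9.54), so that CONV stayed highest there. The log2 ratios in foamy cells were 1.79 (CONV over CONV AsiDNA) and 0.90 (CONV over FLASH), the second short of the fold. Thinned to 1000 adjusted counts, the shares of all AM cells were 3.84% in CONV against 0.301% in CONV AsiDNA and 0.414% in FLASH, with median totals of 5220, 4996 and 5017. C1qb was above 0 in 30 of the CONV AM cells that had C3ar1, and 77 had C3ar1 without C1qb. The summed IM markers given for the C1q of AM cells were highest in CONV here too, and their part was not tested.

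C5ar1, the receptor of C5a, lies at chr7:16246743-16259540 on the minus strand and was spread over several myeloid classes. Neutrophil-like cells had it in 84.2% (79.3 to 88.4) in CONV against 86.9% (82.6 to 90.4) in CONV AsiDNA and, for FLASH, 84.2% (79.6 to 88.1), at 937 adjusted CPM in CONV against 949 in CONV AsiDNA and 776 in FLASH. IM cells had it in 79.7% (74.9 to 84.0) in CONV against 84.1% (79.7 to 87.8) in CONV AsiDNA and, for FLASH, 85.4% (80.7 to 89.4), at 562 adjusted CPM in CONV against 719 in CONV AsiDNA and 628 in FLASH. In both classes the intervals of the libraries overlapped.

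AM cells had C5ar1 in 57.8% (54.7 to 60.9) in CONV against 84.6% (81.7 to 87.3) in CONV AsiDNA and, for FLASH, 84.1% (80.5 to 87.2), and CONV was lowest. The level was 214 adjusted CPM in CONV against 481 in CONV AsiDNA and 434 in FLASH, with log2 ratios of -1.13 (CONV over CONV AsiDNA) and -0.99 (CONV over FLASH). The median log2 ratio of all genes tested in AM cells was -0.19 and -0.15 for these pairs. Scaled by the median gene ratio, the first ratio of C5ar1 was -0.86, short of the fold. Thinned to 1000 adjusted counts, the shares were 18.0% in CONV against 38.7% in CONV AsiDNA and 34.4% in FLASH, in the same order. CONV was lowest within both subsets, with 54.7% (51.2 to 58.2) in CONV against 72.9% (65.9 to 79.1) in CONV AsiDNA and, for FLASH, 68.5% (57.8 to 78.0) in foamy cells and 72.3% (61.4 to 81.6) in CONV against 90.3% (86.7 to 93.1) in CONV AsiDNA and, for FLASH, 88.1% (84.1 to 91.4) in resident cells. The intervals of CONV and FLASH overlapped in foamy cells. The fold was reached in neither subset, with log2 ratios of -0.83 (CONV over CONV AsiDNA) and -0.63 (CONV over FLASH) in foamy cells and -0.72 (CONV over CONV AsiDNA) and -0.54 (CONV over FLASH) in resident cells. The share of foamy cells itself was highest in CONV, and its part in the ratio over all AM cells was not tested. In each library resident cells were higher than foamy cells, and CONV had the fewest resident cells.

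C3ar1 and C5ar1 were above 0 together in 63.9% of the IM cells in CONV against 74.0% in CONV AsiDNA and 77.0% in FLASH. Monocyte-like cells had C5ar1 in 40.0% (27.6 to 53.5) in CONV against 33.0% (27.8 to 38.5) in CONV AsiDNA and, for FLASH, 30.2% (25.7 to 34.9). In mast and basophil-like cells C5ar1 was above 0 in 20.5% of the cells of CONV AsiDNA and listed at 0 in CONV and FLASH, and C3ar1 was above 0 in 0.870% in CONV against 15.4% in CONV AsiDNA and 0% in FLASH. The class was a different mix in each library, since the basophil marker Mcpt8 was above 0 in 8.70% of its cells in CONV against 46.2% in CONV AsiDNA and 73.1% in FLASH and the mast cell marker Mcpt4 in 83.5% of its cells in CONV against 50.0% in CONV AsiDNA and 23.1% in FLASH. It held 115, 78 and 26 cells. Monocyte markers, 3, 4 and 3 of the 13 of which were above 0, summed there to 222 adjusted CPM in CONV against 954 in CONV AsiDNA and 236 in FLASH, and neutrophil markers, 1, 2 and 1 of the 8 of which were above 0, to 2.81 adjusted CPM in CONV against 127 in CONV AsiDNA and 23.6 in FLASH. S100a8, S100a9, Csf3r, Vcan and Ace were listed at 0 in all 3 libraries, and the part of the others was not tested.

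Members past the fold were counted in AM, IM, AT2 and fibroblast-like cells only. Some were past it in other classes, upward as in ciliated-like and SMC cells or downward as in neutrophil-like and mesothelial-like cells. In cDC1-like cells C1qa, C1qb, C1qc, Cfp and C3ar1 stood at 1.83, 1.65, 1.85, 1.06 and 2.09 (CONV over CONV AsiDNA). The C1q ratios of that class rest on 5 and 4 cells. No share of all genes was computed for cDC1-like cells or these other classes, so their ratios are values only and not a result about the members. In AM cells the members past the fold were the C1q chains and the receptors. All 9 were tested there, and for CONV over CONV AsiDNA 4 were higher (C1qa, C1qb, C1qc and C3ar1) and 1 lower (C5ar1), where 5.35% of all genes tested were past the fold in either direction. For CONV over FLASH 4 were higher and 0 lower, against 6.29% of all genes. Within foamy AM cells none of the 9 was past the fold upward for CONV over FLASH, where C3ar1 stood at 0.90 and C1qa at -0.69, against 3.73% of all genes tested in these cells. For CONV over CONV AsiDNA the same 4 genes were past it, against 3.19%, and for CONV AsiDNA over FLASH the 3 C1q chains were past it downward, against 2.79%. Over all AM cells, for CONV AsiDNA over FLASH 0 were higher and 2 lower (C1qa and C1qc), against 1.02%. The 3 C1q genes move together, so they are not separate evidence. The median over the 9 genes was 0.24, 0.66 and -0.14 for these pairs, beside -0.19, -0.15 and 0.03 over all genes.

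In IM cells all 9 were tested. C3 alone was past the fold for CONV over CONV AsiDNA, against 3.51% of all genes, and for CONV AsiDNA over FLASH, against 1.92%. For CONV over FLASH C3 and C4b were past it, against 5.22% of all genes. Each was higher in the library named first. The median over the 9 genes was -0.07, 0.09 and 0.00310 for these pairs, beside 0.05, 0.01 and 0.06 over all genes.

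In AT2 cells 1 member, C3, was tested. It was past the fold for CONV over FLASH, where 6.29% of all genes were, and not for CONV over CONV AsiDNA (5.29% of all genes) or CONV AsiDNA over FLASH (1.11%). In fibroblast-like cells C3, C4b and Cfb were tested, and C4b was past the fold for CONV over FLASH, where 10.3% of all genes were. None was past it for CONV over CONV AsiDNA (8.91% of all genes) or CONV AsiDNA over FLASH (4.59%), although Cfb stood at -0.89 and 0.97. In a single random draw of equal numbers of cells, C4b stood at 1.71 in CONV and 1.30 in CONV AsiDNA, both over FLASH. The draw kept all 64 CONV cells, so these values depend on which cells of the other libraries were drawn. The comparisons of CONV with the other libraries share the CONV library, so they are not independent of each other.

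**Figure D3:**
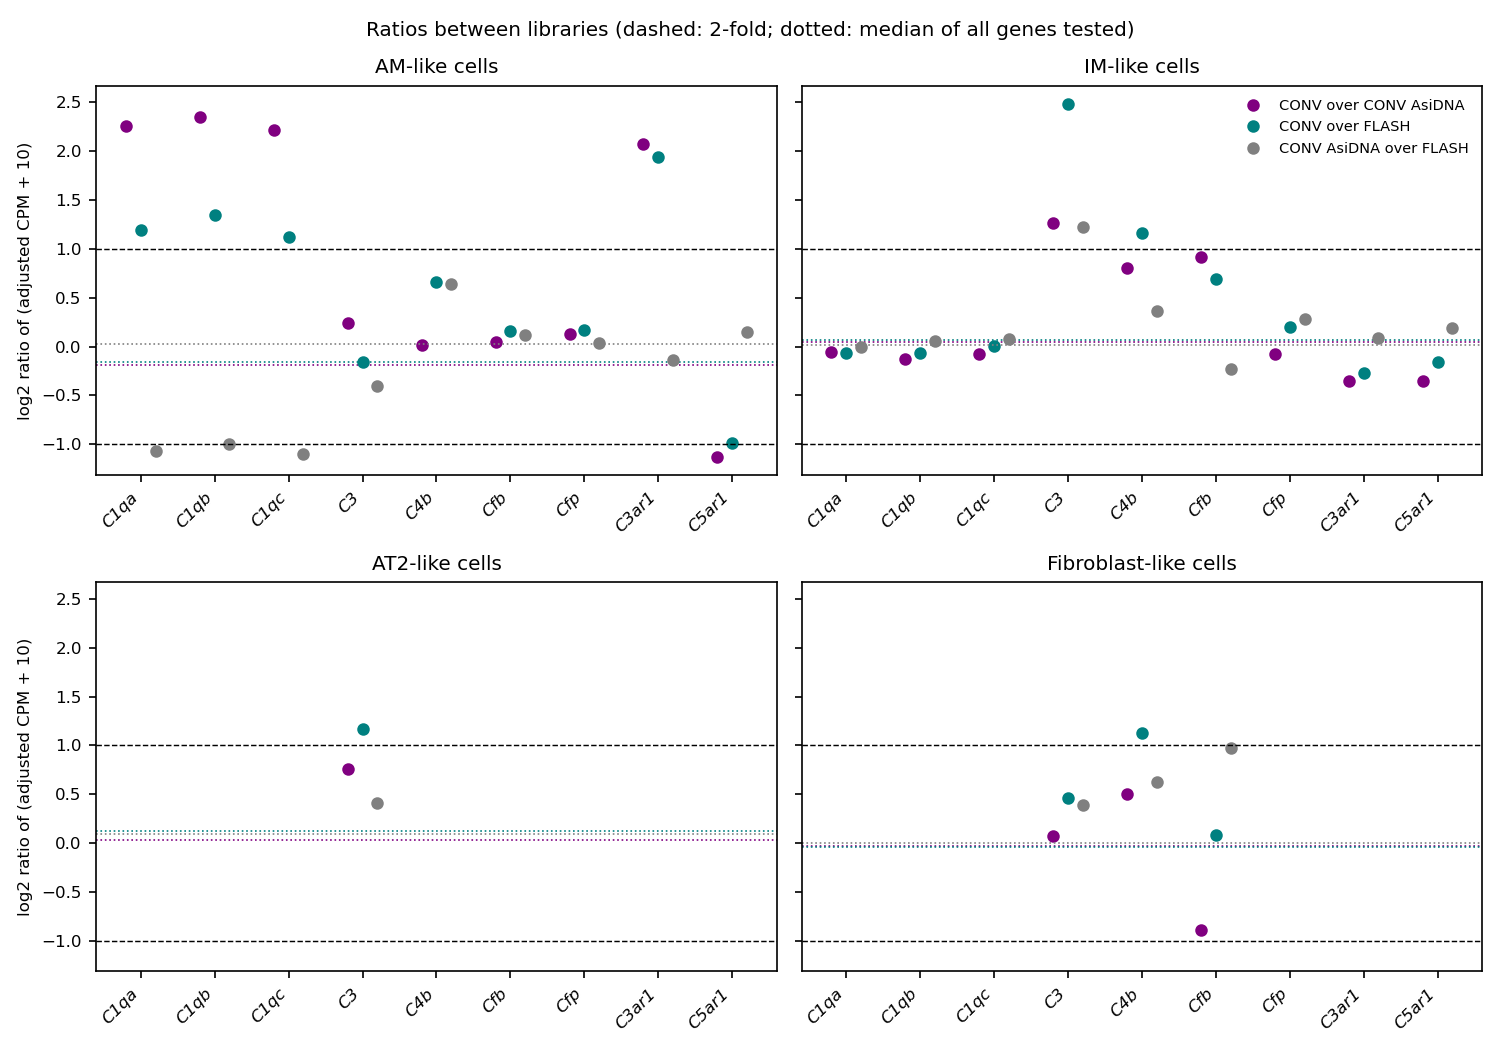
log2 ratio of (adjusted CPM + 10) for each tested gene in AM, IM, AT2 and fibroblast-like cells, in colours for the 3 pairs of libraries, with dashed lines at 2-fold and dotted lines at the median of all genes tested. In AM cells the C1q chains and C3ar1 lie above the upper line for CONV over both other libraries and C5ar1 lies at or near the lower line. In IM cells C3 lies highest, at 2.49 for CONV over FLASH, with very few FLASH cells above 0.

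For C1qa, IM cells held 74.4% in CONV against 85.2% in CONV AsiDNA and 88.4% in FLASH, and cells without a class 21.5% in CONV against 13.9% in CONV AsiDNA and 10.6% in FLASH. For C3, AT2 cells held 16.5% in CONV against 7.78% in CONV AsiDNA and 6.81% in FLASH, and fibroblast-like cells 22.3% in CONV against 27.6% in CONV AsiDNA and 29.8% in FLASH. For C4b, IM cells held 23.1% in CONV against 10.9% in CONV AsiDNA and 6.96% in FLASH. For C3ar1, AM cells held 19.9% in CONV against 1.11% in CONV AsiDNA and 1.59% in FLASH. How many cells of a class reached a library also depends on the digestion, so these shares describe the libraries and not the tissue.

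**Figure D4:**
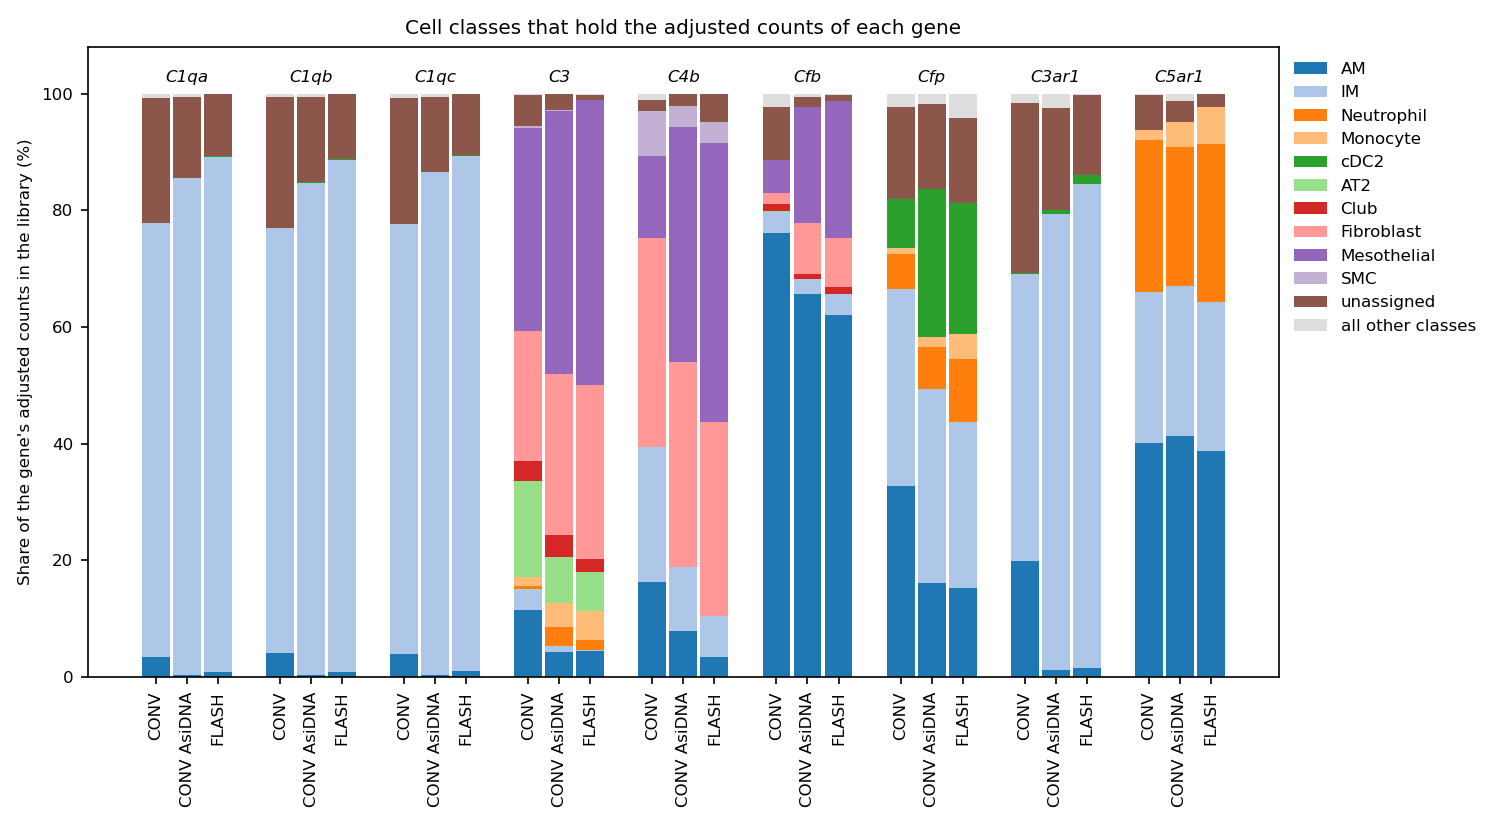
Share (%) of each gene's adjusted counts that lay in each cell class, as 1 stacked bar per gene and library that adds to 100%. IM cells hold most of the C1q counts in each library, and for C3 and C4b the mesothelial part is smallest in CONV (14.1% of C4b, against 47.8% in FLASH).

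Of 42 other complement genes listed for comparison, 38 were in the tables (all but C1rb, C8b, Colec10 and Mbl2), and 23 were above 0 in at least 10% of the cells of a class with 20 cells or more. The proteases that work with C1q were found in stromal cells. C1ra was above 0 in 92.2% of the fibroblast-like cells in CONV against 73.3% in CONV AsiDNA and 73.8% in FLASH, and C1s1 in 93.8% in CONV against 89.2% in CONV AsiDNA and 83.7% in FLASH. C2, the partner of C4, was above 0 in 86.4% of the mesothelial-like cells in CONV against 87.0% in CONV AsiDNA and 94.7% in FLASH and in 56.3% of the fibroblast-like cells in CONV against 40.8% in CONV AsiDNA and 30.8% in FLASH. Serping1, the inhibitor of the C1 proteases, was in nearly every fibroblast-like cell, at 100% in CONV against 100% in CONV AsiDNA and 99.4% in FLASH.

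The terminal component Hc, which encodes C5 and so the source of the ligand of C5ar1, was a gene of AT2 cells. It was above 0 in 96.6% (93.8 to 98.3) in CONV against 92.4% (89.1 to 95.1) in CONV AsiDNA and, for FLASH, 91.4% (88.2 to 94.0), at 3947 adjusted CPM in CONV against 2677 in CONV AsiDNA and 2405 in FLASH. C6, which joins C5 in the terminal complex, was above 0 in 80.3% (75.3 to 84.8) of the AT2 cells in CONV against 52.6% (47.0 to 58.1) in CONV AsiDNA and, for FLASH, 60.3% (55.2 to 65.2). Clu, an inhibitor of that complex, was above 0 in 92.1% (88.3 to 94.9) of them in CONV against 65.9% (60.5 to 71.0) in CONV AsiDNA and, for FLASH, 59.2% (54.1 to 64.2), at 1159.8 adjusted CPM in CONV against 643 in CONV AsiDNA and 342 in FLASH. CONV was the highest library for each of these 3 genes. The mitochondrial share of AT2 cells was given beside C3. Type 1 alveolar epithelial-like (AT1) cells held Clu as well, at 1518 adjusted CPM in CONV against 378 in CONV AsiDNA and 24.3 in FLASH. The log2 ratios there were 1.98 (CONV over CONV AsiDNA) and 5.48 (CONV over FLASH), on 537, 82 and 9 adjusted counts in CONV, CONV AsiDNA and FLASH. Hc had 20 adjusted counts in the AT1 cells of CONV and 0 in those of CONV AsiDNA and FLASH. The part of AT2 transcripts in the Clu of AT1 cells was not tested, and no share of all genes is given for AT1 cells. The mitochondrial share of AT1 cells was 1.09% in CONV against 1.28% in CONV AsiDNA and 3.47% in FLASH. C7, also of the terminal complex, was in fibroblast-like cells, at 54.7% in CONV against 64.2% in CONV AsiDNA and 74.4% in FLASH, with FLASH highest.

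Among the receptors, the integrin chain Itgam was above 0 in 83.3% of the monocyte-like cells in CONV against 83.3% in CONV AsiDNA and 81.7% in FLASH, and Itgax in 95.3% of the AM cells in CONV against 97.4% in CONV AsiDNA and 97.9% in FLASH. C5ar2, the second receptor of C5a, was above 0 in 24.7% of the AM cells in CONV against 31.6% in CONV AsiDNA and 26.9% in FLASH. Cd93 was above 0 in 62.5% (59.4 to 65.5) of the AM cells in CONV against 21.1% (18.0 to 24.4) in CONV AsiDNA and, for FLASH, 14.3% (11.3 to 17.7), with CONV highest. Cr2, which binds fragments of C3, was in B cells, at 22.7% in CONV against 24.0% in CONV AsiDNA and 27.5% in FLASH. The lectin gene Fcna was in Folr2 Cd163 IM cells, at 46.7% in CONV against 51.2% in CONV AsiDNA and 42.3% in FLASH. Cd55, a membrane brake on C3 cleavage, was above 0 in 92.0% of the ciliated-like cells in CONV against 86.0% in CONV AsiDNA and 78.6% in FLASH.

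In AM cells Colec12, Clu and Cd93 were past the fold for CONV over CONV AsiDNA, at log2 ratios of 1.01, 1.22 and 1.53. Against FLASH, Cd93 of CONV stood at 1.89 and Clu at -1.38. Clu was listed at 0 in the AM cells of CONV AsiDNA, so its ratios over that library rest on the added constant, and all its adjusted counts in CONV and FLASH were in resident AM cells. Within these the order turned, at 161 adjusted CPM in CONV against 73.7 in FLASH and a log2 ratio of 1.03. In fibroblast-like cells 13 were tested for CONV over each other library and 3 were upward (C6, Clu and Cd55), at log2 ratios of 2.63, 1.92 and 2.70 for CONV over CONV AsiDNA. AT2 markers, 2, 1 and 0 of the 11 in number, summed to 42.4 adjusted CPM in CONV against 11.8 in CONV AsiDNA and 0 in FLASH in the fibroblast-like cells, with Sftpc and Sftpb listed at 0 in all 3 libraries, and their part was not tested. In AT2 cells 1 of 9 was upward for CONV over CONV AsiDNA (C1ra). For CONV over FLASH 2 of 9 were upward (C1ra and Clu), and none was downward in either pair. C1ra had only 22 adjusted counts in the AT2 cells of CONV, against 2 in CONV AsiDNA and 0 in FLASH. It reached the minimum sum through its counts in CONV, and its ratio over FLASH rests on the added constant. In IM cells Vsig4 was upward for CONV over CONV AsiDNA and Itgb2 downward for CONV over FLASH, out of 11 tested in each pair. The shares of all genes past the fold are those given for the 9 genes.

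**Figure D5:**
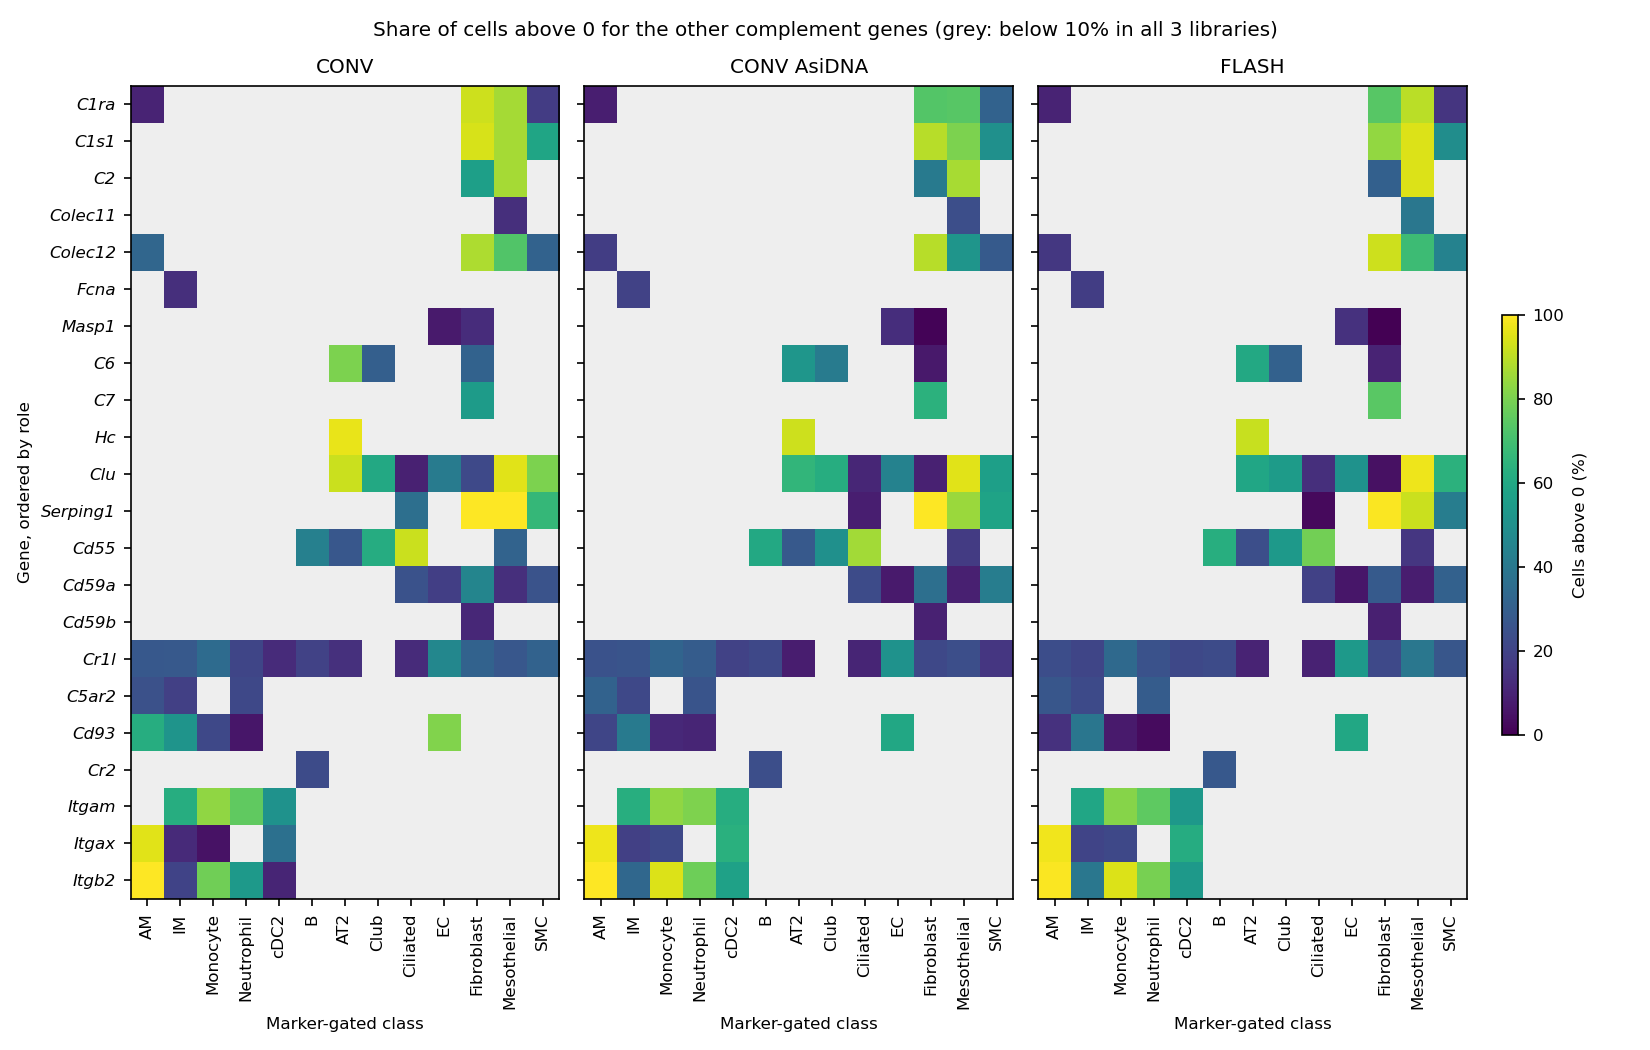
Share of cells above 0 (colour, %) for other complement genes that reached 10% in a class, by marker-gated class, with 1 panel per library and grey where a gene stayed below 10% in the class in all 3 libraries. Fibroblast cells hold the C1 proteases C1ra and C1s1 and the regulator Serping1, AT2 cells hold Hc, C6 and Clu, and ciliated cells hold Cd55.

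Over 61 groups of a class and library with at least 20 cells, the levels of the C1q chains followed one another with Pearson correlations of 0.998 to 0.999 on the log2 scale. The gene next most like them was Ms4a7, a marker used to gate IM cells, at 0.957 for C1qa. C3ar1 was most like C1qb (0.938), C1qa (0.934) and C1qc (0.934). The genes most like C3 were Steap4 (0.847), Efemp1 (0.831) and C1rl (0.829), those most like C4b were Ildr2 (0.935), Plxdc2 (0.926) and C1ra (0.913), and those most like Cfb were Ccdc80 (0.870), Dtx4 (0.822) and Ehbp1 (0.794). For Cfp they were Wfdc17 (0.925), Gm46224 (0.893) and Clec4a2 (0.889), and for C5ar1 Ccl6 (0.934), Fcgr3 (0.931) and Hk3 (0.929). Groups of a class from the 3 libraries are alike and groups of a library share its processing, so these correlations are a description of where the genes were found.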

How the data were processed

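Lung cells of 3 libraries were measured with 10x Genomics 3′ single-cell RNA sequencing. Per the submitters' processing notes, reads were processed with Cell Ranger 6.0.0 against mm10. The authors deposited natural log values per gene and cell, ln(1 + a whole number), and no source used here gives the further adjustment of depth. The values were converted back with a tolerance of 1e-06. Because they are adjusted, no count model was used, although a design with count-like values had been planned. Another 4 tables with 12 columns of samples were not used, and some of them hold the authors' own comparisons.

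Cells with under 200 genes (CONV 1, CONV AsiDNA 2, FLASH 0) or over 20% mitochondrial counts (0) were left out. Scrublet called 1, 1 and 2 cells as doublets, which were left out. Why it made so few calls on these adjusted values was not tested, and doublets may remain. A cell took the class with the highest share of its markers above 0, with at least 3 markers above 0 and a lead of 10 percentage points. This scoring and the subset rules were set after seeing the data. Gene positions came from the GENCODE annotation of GRCm38 and promoters from RefSeq. A gene was tested, that is compared by its log2 ratio with an added constant of 10, if its sum over both libraries was at least 20. Genes were named if they were members, if they were among the 3 most like a member, or from the list of 42 other complement genes. Of that list, 1 gene is not reported here. The members and lists were chosen with earlier results of these data known. There is 1 library per group, so no p-value or standard error is given. Alternatives changed the gate, the cluster classes, the cell filters, the added constant, the scaling, the weight and number of cells and the minimum sum, and cells were thinned to 1000 and 500 adjusted counts. The scripts were tested on simulated data. Single-cell steps used scanpy 1.11.5 with anndata 0.12.19, clusters leidenalg 0.10.2 with igraph 0.11.9, and figures matplotlib 3.10.9. The rest used Python 3.11.15 with pandas 2.3.3, numpy 2.4.6, scikit-learn 1.9.0, scipy 1.17.1 and biopython 1.88.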

Additional observations from a re-analysis of the deposited data

Results flagged for a closer look

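C3 differed between libraries in opposite directions in IM-like and neutrophil-like cells. In IM-like cells CONV stood above CONV AsiDNA by a log2 ratio of 1.26 and above FLASH by 2.49. Very few IM-like cells of CONV AsiDNA and FLASH were above 0 for C3. AT2 and fibroblast markers had the same order in IM-like cells, and their part was not tested. In neutrophil-like cells the ratios of CONV were -2.1 to CONV AsiDNA and -1.3 to FLASH. These were singled out because the same contrast ran one way in one class and the other way in another. The difference was not tested, since each condition is 1 library.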

How the results depend on the processing

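The 45 log2 ratios were recomputed under 405 alternatives, of which 390 stayed within a factor of 1.5 and on the same side of the fold, 15 did not, and 391 kept the sign. The sign changed, or the value came to 0, only for ratios short of the fold. Classes from clusters took C4b in IM cells for CONV over FLASH to 0.53 and C5ar1 in AM cells to -1.05. For C5ar1 in AM cells, CONV over FLASH was -1.03 without the highest doublet scores, -1.08 with equal numbers of cells and -1.02 with an added constant of 1. Scaling by the median gene ratio gave -0.86 for C5ar1 in AM cells, CONV over CONV AsiDNA, and 0.97 for C3 in AT2 cells, CONV over FLASH. With equal numbers of cells, C4b in fibroblast-like cells was 1.71 in CONV and 1.30 in CONV AsiDNA, both over FLASH. Equal numbers of cells were drawn only a single time. With an added constant of 1, C3ar1 of CONV AM cells was 3.38 over CONV AsiDNA and 3.01 over FLASH. The cause was not tested. Of 270 alternatives for 45 shares, 15 left the share's exact interval, and thinning took 76 of 90 out of it, with 87 lower. Leaving out a replicate was not possible with 1 library per group. No paired analysis was possible because each group holds 1 sample. Low genes rest on few cells, and a value of 0 sets no limit.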
